A study of Mus musculus with 16 samples.

Results

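The ADAMTS proteases described here are 9 mouse genes, taken by symbol from the 24421 genes of the expression table: Adamts1, Adamts2, Adamts4, Adamts5, Adamts8, Adamts9, Adamts12, Adamts15 and Adamtsl2. All 9 were found, and all 9 passed the filter on low values that left 14298 genes for testing. Whole-heart polyA RNA was sequenced from 4 groups of 4 adult mice of about 3 months, collected 2 weeks after surgery. WT sham hearts were wild type with a sham operation, WT MI hearts were wild type with a myocardial infarction made by permanently tying the left anterior descending coronary artery, and OE sham and OE MI hearts overexpressed the receptor tyrosine kinase ERBB2 and had the same 2 operations. The labels give no sex, no promoter or cell type for the overexpressed ERBB2 and no agent that switches it on, and the region of the heart that was sampled is not given in the sources used here. WT sham hearts served both the comparison with OE sham and the comparison with WT MI hearts, so these 2 comparisons share 4 libraries.

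ADAMTS enzymes are secreted zinc metalloproteases whose thrombospondin type 1 repeats anchor them to matrix and cell surfaces. They are made with a prodomain that furin-like convertases remove, are held back by tissue inhibitors of metalloproteases, and are taken up by the endocytic receptor LRP1. Adamts1, Adamts4, Adamts5, Adamts8, Adamts9 and Adamts15 belong to the proteoglycan-cleaving branch, whose best known substrates are versican and aggrecan. Versican cleavage clears the proteoglycan-rich jelly of the developing mouse heart. Adamts12 belongs with Adamts7 to a pair that cleaves cartilage oligomeric matrix protein, Adamts2 removes the amino-terminal propeptide of fibrillar procollagens, and Adamtsl2 lacks the protease domain and binds fibrillin-1 and a latent TGF-beta binding protein.

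On the mm10 assembly Adamts1 lies on chromosome 16 at 85793827 to 85803113 and Adamts5 on the same chromosome at 85858157 to 85901125, both on the minus strand and 55.0 kb apart. Adamts15 (30899155 to 30922452, minus strand) and Adamts8 (30942562 to 30963838, plus strand) lie 20.1 kb apart on chromosome 9. No protein-coding gene lies within either gap. Adamts4 is on chromosome 1 (171250129 to 171262267), Adamts9 on chromosome 6 (92772699 to 92944450), Adamts12 on chromosome 15 (11064773 to 11349232), Adamts2 on chromosome 11 (50602085 to 50807573) and Adamtsl2 on chromosome 2 (27079336 to 27108981). The strand setting of the authors' counting is not given in the sources used here, so reads of a member and of any gene that overlaps it on the other strand cannot be told apart.

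The 250 bases before the RefSeq transcript start (GRCm38.p6, the same assembly) were available for 5 of the 9 genes. The 4 printed here belong to Adamts2 and Adamts12, the 2 members whose levels over the 16 hearts were most alike, and to Adamts1 and Adamtsl2, which were higher in OE hearts and hold a TATA element, TATAAA, written in capitals. They are Adamts2 at chr11:50601835-50602084 (plus strand), Adamts12 at chr15:11064523-11064772 (plus strand), Adamts1 at chr16:85803114-85803363 (minus strand) and Adamtsl2 at chr2:27079129-27079378 (plus strand), each written 5′ to 3′ so that its last base precedes the transcript start. For Adamtsl2 that transcript start lies inside the gene span given above, which begins at 27079336. The last bases of its stretch, with the TATA element, therefore lie within that span.
Adamts2: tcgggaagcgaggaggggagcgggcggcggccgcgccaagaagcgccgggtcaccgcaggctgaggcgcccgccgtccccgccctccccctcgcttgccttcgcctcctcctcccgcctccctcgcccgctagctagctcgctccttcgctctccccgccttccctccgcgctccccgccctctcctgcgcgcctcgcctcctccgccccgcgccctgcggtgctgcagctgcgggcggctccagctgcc
Adamts12: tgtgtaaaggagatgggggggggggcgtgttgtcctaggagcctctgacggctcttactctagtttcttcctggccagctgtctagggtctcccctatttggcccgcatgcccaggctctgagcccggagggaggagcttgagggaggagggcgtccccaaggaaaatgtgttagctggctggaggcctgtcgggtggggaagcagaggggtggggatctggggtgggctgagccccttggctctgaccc
Adamts1: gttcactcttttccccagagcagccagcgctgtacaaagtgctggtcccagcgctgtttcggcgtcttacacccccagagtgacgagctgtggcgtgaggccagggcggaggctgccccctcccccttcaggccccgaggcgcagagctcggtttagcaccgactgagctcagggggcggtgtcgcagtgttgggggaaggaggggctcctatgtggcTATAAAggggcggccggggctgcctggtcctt
Adamtsl2: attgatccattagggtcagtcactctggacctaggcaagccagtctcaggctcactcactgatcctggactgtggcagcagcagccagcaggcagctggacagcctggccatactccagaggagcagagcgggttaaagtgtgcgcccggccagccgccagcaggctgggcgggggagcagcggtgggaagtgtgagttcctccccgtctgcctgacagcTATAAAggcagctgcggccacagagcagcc
The TATA element begins 32 bases before the transcript start used for Adamts1 and 30 before that used for Adamtsl2. Of 32851 mouse promoter windows of 300 bases (the last 50 lie after the start), 13.6% hold TATAAA on either strand. GC made up 65.6% of the Adamts1 stretch, 62.8% of that of Adamtsl2, 63.2% of that of Adamts12 and 78.0% of that of Adamts2, beside a median of 52.4% over all promoters. The TEAD core GGAATG (in 14.7% of all promoters), the AP-1 site TGANTCA (7.81%) and the RUNX core TGTGGT (16.8%) were searched on both strands and match no letters in the windows of the 5 genes.

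Recovered reads per library ran from 11939093 to 17468914. Erbb2 itself stood at 204 to 307 normalized reads in the 8 WT hearts and 792 to 2529.9 in the 8 OE hearts, with no overlap. Cardiomyocyte markers had the highest summed level of the marker lists in every library. Lung epithelial markers were at 6.38 to 15.2 normalized reads in all sham hearts, but reached 9701, 1904 and 6498 in WT MI replicates 2, 3 and 4, and 6702 and 2439 in OE MI replicates 2 and 3. Only WT MI replicate 1 (12.1) and OE MI replicates 1 and 4 (37.8 and 22.02) were low among infarcted hearts. Thymocyte markers were at 561, 963 and 381 in OE MI replicates 1, 3 and 4 and at 3.58 to 14.8 in the other 13 libraries. For the ADAMTS members, comparisons that use infarcted hearts were therefore also fitted without these libraries. Other family genes, substrate and partner genes and cell markers are given with all libraries only. Their calls in infarcted hearts, or for infarction against sham surgery, were not checked in this way. Differences between sham hearts use none of the libraries high in lung or thymocyte markers, except through the shared estimate of the spread.

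Levels of different genes were compared per kilobase of exon. Adamts1 led in WT sham hearts at 141 ± 16.9 normalized reads per kb (SD, n = 4), followed by Adamts2 at 99.8 ± 11.4 and Adamtsl2 at 78.3 ± 29.1. Adamts5 (49.6 ± 7.06 per kb), Adamts9 (48.5 ± 5.19), Adamts8 (35.8 ± 28.4) and Adamts15 (33.6 ± 3.09) came next, with ranges that overlapped from each gene to the next. Adamts12 at 5.54 ± 1.43 and Adamts4 at 0.999 ± 0.773 per kb were the lowest, and their ranges overlapped neither each other nor that of Adamts15. The order changed in the other groups: Adamts2 led in OE sham hearts at 317 ± 16.4 per kb and in WT MI hearts at 221 ± 39.3, and Adamtsl2 led in OE MI hearts at 414 ± 219, in each case with a range that overlapped that of the next gene. Adamts4 stayed lowest in all 4 groups. Summed over the 9 genes, the level was 425 to 612 normalized reads per kb in WT sham hearts, 652 to 921 in WT MI, 936 to 1247 in OE sham and 1055 to 1831 in OE MI hearts.

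**Figure D1:**
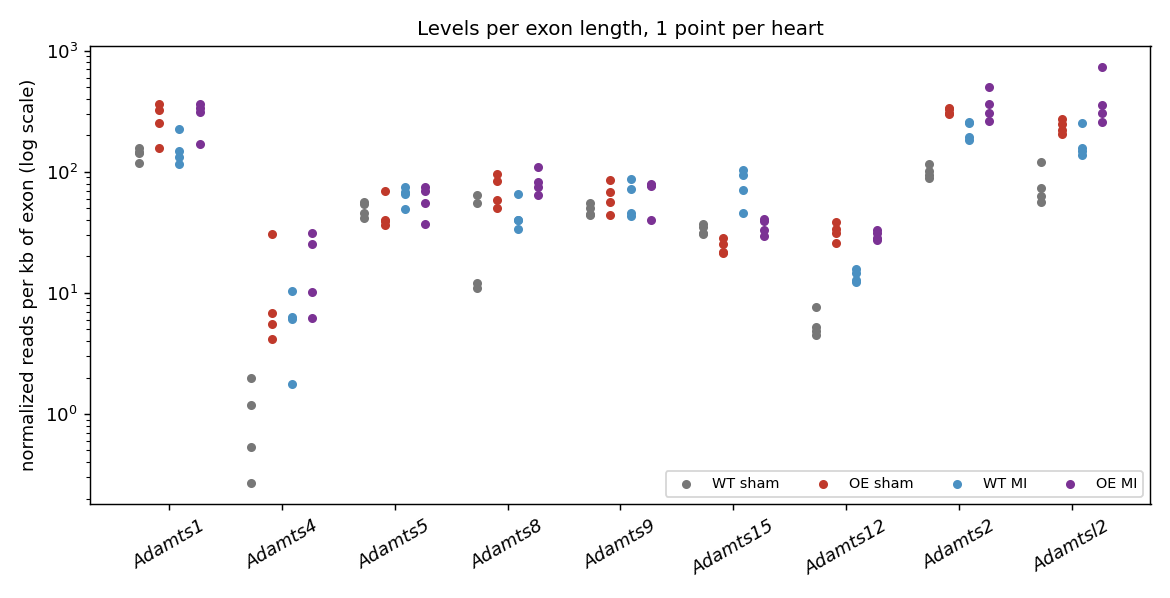
Normalized reads per kb of exon (log scale) for each of the 9 genes, 1 point per heart and 1 colour per group (WT sham, OE sham, WT MI, OE MI). Adamts1, Adamts2 and Adamtsl2 have the 3 highest means in every group, and Adamts4 has the lowest and runs from 0.269 to 31.1 per kb over the hearts.

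In sham hearts, where no infarct was made, ERBB2 overexpression was compared with wild type. Transcripts of 6 of the 9 genes rose: Adamts1, Adamts4 and Adamts8 of the proteoglycan-cleaving branch, Adamts12, Adamts2 and Adamtsl2. None of the 9 fell, and Adamts5, Adamts9 and Adamts15 did not pass. Among all tested genes 49.3% passed in this comparison, 24.9% higher and 24.5% lower. Those were 3554 and 3497 genes, and scaling by library totals in place of the deposited size factors gave 5146 and 2368, with 6 of the 9 genes still higher. The median log2 fold change was 1.40 over the 9 genes and 0.011 over all tested genes. The 9 genes and the gene lists were chosen with earlier results of these data known. Their counts and medians beside those of all genes are therefore no test of a set, here or below. Because whole-heart RNA was measured, fewer cells of a type and less RNA per cell cannot be told apart.

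**Figure D2:**
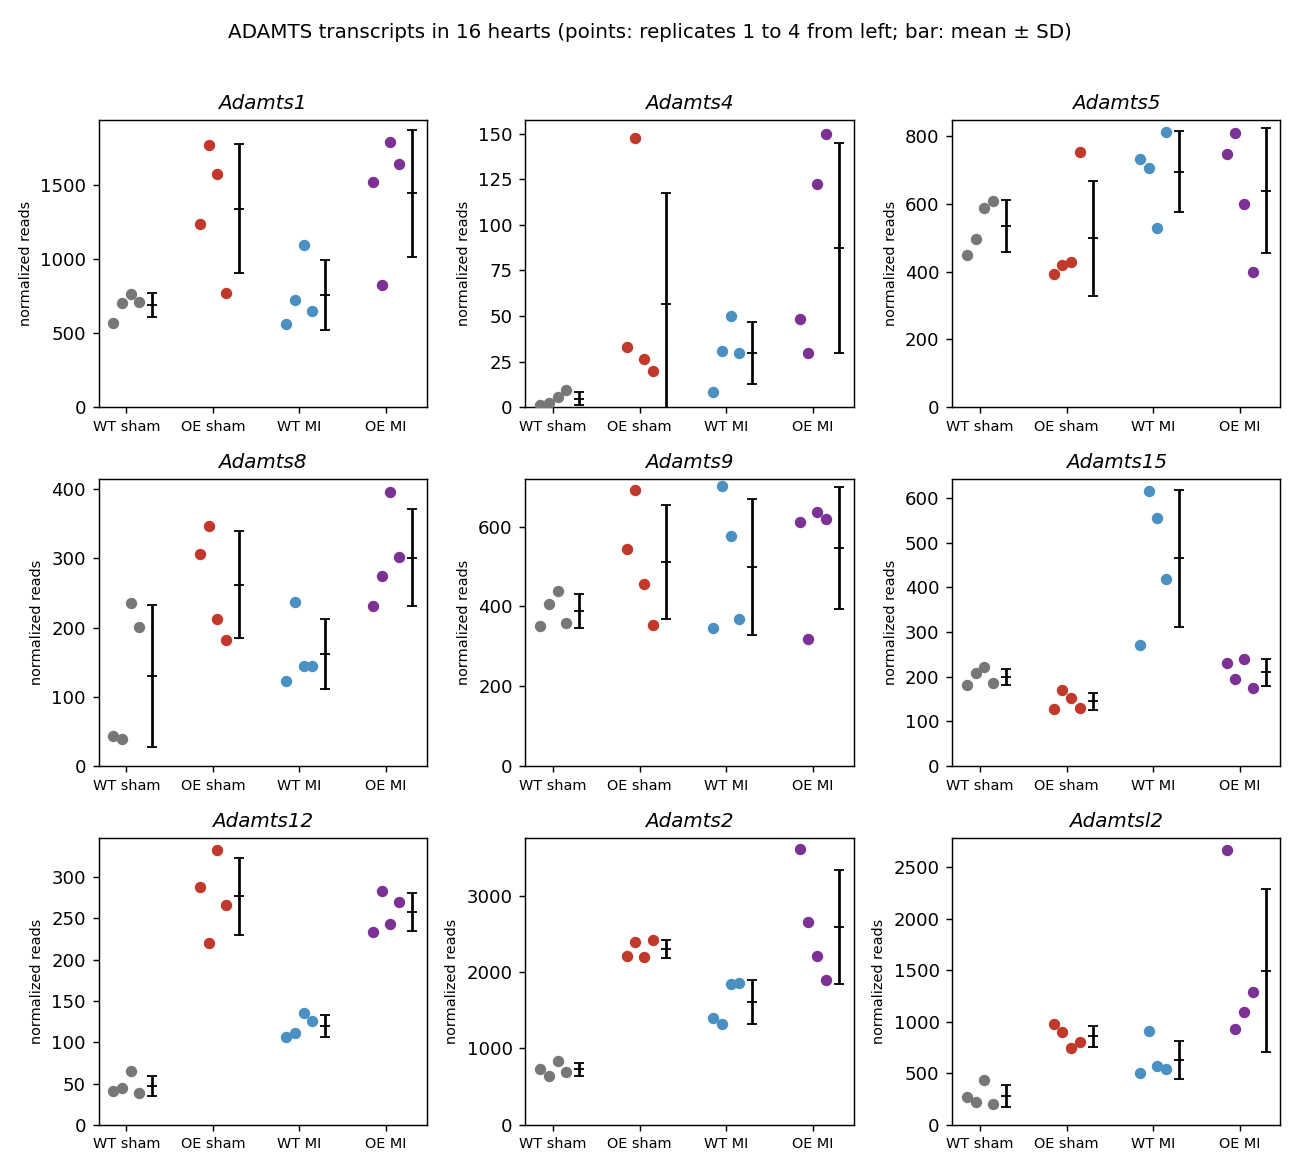
Normalized reads of each gene in the 16 hearts, by group, with replicates 1 to 4 from left to right and a bar for the mean ± SD of 4 hearts (axes start at 0, where the Adamts4 bar of OE sham is cut off). Adamts12 shows WT sham, WT MI and OE hearts at separate levels, whereas Adamts15 is highest in the 4 WT MI hearts, at 269.9 to 615.

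In normalized reads, replicates 1 to 4 of the WT sham group had 572, 705, 765 and 713 for Adamts1, a protease that cuts versican, against 1239.6, 1773, 1577.5 and 774 in OE sham hearts. All OE sham hearts were above all WT sham hearts, though replicate 4 only just. The log2 fold change was 0.90 (SE 0.27, limma adjusted p = 0.0118), or 1.87-fold. After infarction Adamts1 was at 563, 721.5, 1097 and 652 in WT hearts and 1519.8, 825, 1789 and 1643 in OE hearts. Here OE MI replicate 2 lay inside the WT range and the other 3 OE hearts above it. The log2 fold change was 0.92 (SE 0.27, adjusted p = 0.0168). OE MI replicate 2 was also the OE MI heart with thymocyte markers at the level of the other groups. Without the other 3 the difference was 0.17, which sets that 1 heart against the 4 WT MI hearts. With terms for lung and thymus markers, a fit that keeps all hearts, the difference was 0.145 (adjusted p = 0.847). Leaving out WT MI replicate 1 or OE MI replicate 3 also ended the call in infarcted hearts, at 0.79 in each case, whereas the call in sham hearts held in all 30 alternatives.

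Adamts4, an aggrecan- and versican-cleaving enzyme, was close to absent from WT sham hearts, with 1, 2, 5 and 9 reads. In OE sham hearts 37, 160, 28 and 25 reads were counted. As normalized reads these were 1.29, 2.55, 5.75 and 9.62 in WT sham against 33.1, 147.5, 26.6 and 19.9 in OE sham hearts, with no overlap. OE sham replicate 2 stood far above the other 3. The log2 fold change, which the added pseudocount of 1 makes smaller for so low a gene, was 3.07 (SE 0.70, adjusted p = 0.0018). After infarction Adamts4 was at 8.44, 30.7, 50.02 and 29.5 in WT hearts and 48.6, 29.6, 122 and 149.8 in OE hearts. The groups overlapped, and the OE difference of 1.48 (95% interval 0.0018 to 2.96, adjusted p = 0.12) did not pass.

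Adamts8 rose in OE sham hearts by 1.40 on the log2 scale (SE 0.48, adjusted p = 0.0237), but WT sham hearts were split. Replicates 1 and 2 had 43.9 and 39.6 normalized reads, and replicates 3 and 4 had 236 and 201. OE sham hearts had 306, 347, 212 and 182.5, so that both groups overlapped. The 2 WT sham hearts high in Adamts8 were also higher in adipocyte markers (764 and 1583.5 summed normalized reads against 146 and 51.1) and in epicardial and mesothelial markers (1327 and 1593 against 811 and 905), and carry RA numbers 14 and 15 against 1 and 2. The part of these in the result was not tested, and the meaning of the RA numbers is not stated. The call was lost in 7 of 30 alternatives, with adjusted p from 4.74e-05 to 0.091 over all of them. Among the 7 were edgeR (1.02, adjusted p = 0.0681), the fit of the 2 groups alone (1.40, 0.0603) and those without WT sham replicate 1 (1.03) or 2 (0.98) or without OE sham replicate 1 (1.30) or 2 (1.25). In the authors' deposited table Adamts8 had an adjusted p of 0.0624. After infarction it was at 123, 237, 145 and 144 in WT hearts and 232, 274, 396 and 301 in OE hearts, and the difference of 0.91 (95% interval -0.11 to 1.92) did not pass (adjusted p = 0.167). It passed in 2 of 30 alternatives, the fit of the 2 infarcted groups alone (adjusted p = 0.0191) and RA 1 to 12 alone (0.87, adjusted p = 0.0198).

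Adamts9, a versican-cleaving enzyme needed in the developing mouse heart, was at 349.9, 406, 439 and 359 normalized reads in WT sham and 545, 691, 456 and 353 in OE sham hearts. The groups overlapped through OE sham replicate 4. The difference was 0.36 (95% interval -0.19 to 0.91, adjusted p = 0.265). Infarcted WT hearts had 347, 701, 577 and 369.7 and OE hearts 612, 318, 637 and 620.2, a difference of 0.14 (95% interval -0.41 to 0.69, adjusted p = 0.722). Adamts1, Adamts4 and Adamts9 were each lowest in OE sham replicate 4 among the OE sham hearts and in OE MI replicate 2 among the OE MI hearts. Erbb2 was not lowest in these: among OE hearts it was lowest in sham replicate 2 (792) and MI replicate 1 (793).

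Adamts5, the aggrecan-cleaving neighbour of Adamts1, did not pass in any comparison. It was at 448, 495, 587 and 609.5 in WT sham and 391, 420.4, 428 and 752.5 in OE sham hearts, a difference of -0.15 (95% interval -0.63 to 0.34, adjusted p = 0.62). OE sham replicate 4, the lowest of its group in Adamts1, was the highest in Adamts5. Infarcted WT hearts had 731.5, 705, 528.5 and 811 and OE hearts 748, 809.8, 599 and 397, and OE MI replicate 2 was again the highest in Adamts5 and the lowest in Adamts1. The difference between infarcted groups was -0.15 (95% interval -0.64 to 0.33, adjusted p = 0.651).

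Adamts15, the versican-cleaving neighbour of Adamts8, was lower in OE than in WT infarcted hearts. WT sham hearts had 182, 208, 221 and 186 normalized reads and OE sham hearts 128, 169.6, 151 and 129.9, without overlap. The difference of -0.46 (95% interval -0.89 to -0.04) did not pass over all genes (adjusted p = 0.0661), but passed in 6 of 30 alternatives, among them the fit of the 2 sham groups alone (adjusted p = 0.00774) and those without WT MI replicate 1 (0.012) or 2 (0.0446), with adjusted p from 0.00774 to 0.313 over the 30. After infarction WT hearts had 269.9, 615, 555 and 419 and OE hearts 231, 195, 239.8 and 174, again without overlap. Adamts15 was lower in OE than in WT infarcted hearts by 1.09 (SE 0.20, adjusted p = 0.000737). WT MI replicate 1, the WT MI heart without lung markers, was the lowest of its group. Without the 5 lung-marked libraries the difference was -0.43 (adjusted p = 0.204), with 1 WT MI heart left.

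Adamts12, the enzyme of the pair that cleaves cartilage oligomeric matrix protein, held separate levels in WT sham, WT MI and OE hearts. WT sham hearts had 41.3, 44.7, 65.5 and 38.5 normalized reads and OE sham hearts 288, 220.3, 333 and 266, a rise of 2.53 on the log2 scale (SE 0.16, adjusted p = 4.14e-08) or 5.79-fold. WT MI hearts had 106, 111, 136 and 125 and OE MI hearts 233, 283, 243.5 and 269.6. The lowest OE heart of either operation was above the highest WT heart, and the lowest WT MI heart above the highest WT sham heart. The OE difference in infarcted hearts was 1.10 (SE 0.16, adjusted p = 0.000109), and both OE calls held in all 30 alternatives.

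Adamts2, the procollagen N-proteinase, was at 735, 641, 835 and 689 normalized reads in WT sham and 2215, 2396, 2193 and 2421 in OE sham hearts. The 4 OE sham hearts lay close together and far above WT sham, with a log2 fold change of 1.67 (SE 0.16, adjusted p = 9.70e-07), or 3.19-fold. WT MI hearts had 1404, 1320.2, 1847.5 and 1859 and OE MI hearts 3612, 2662, 2211.5 and 1897.5, and the lowest OE MI heart was just above the highest WT MI heart. The OE difference after infarction was 0.67 (SE 0.16, adjusted p = 0.00537). With terms for lung and thymus markers in the fit that difference was still 0.67, but its adjusted p was 0.147, the only alternative of 30 that ended the call.

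Adamtsl2, which binds fibrillin-1, was at 266, 226, 435.5 and 203 normalized reads in WT sham and 979, 897, 748 and 805 in OE sham hearts, without overlap. It rose by 1.65 (SE 0.29, adjusted p = 0.000229), or 3.15-fold, in all 30 alternatives past the threshold. WT MI hearts had 501, 906, 568 and 539 and OE MI hearts 2661, 930, 1097 and 1287. OE MI replicate 1 had more than any other heart, and the lowest OE MI heart was above the highest WT MI heart. The OE difference after infarction was 1.16 (SE 0.29, adjusted p = 0.00636). Without the 3 libraries high in thymocyte markers, OE MI replicate 1 among them, it was 0.61, with 1 OE MI heart left. With terms for lung and thymus markers, a fit that keeps all hearts, the difference was 0.67 (adjusted p = 0.423).

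**Figure D3:**
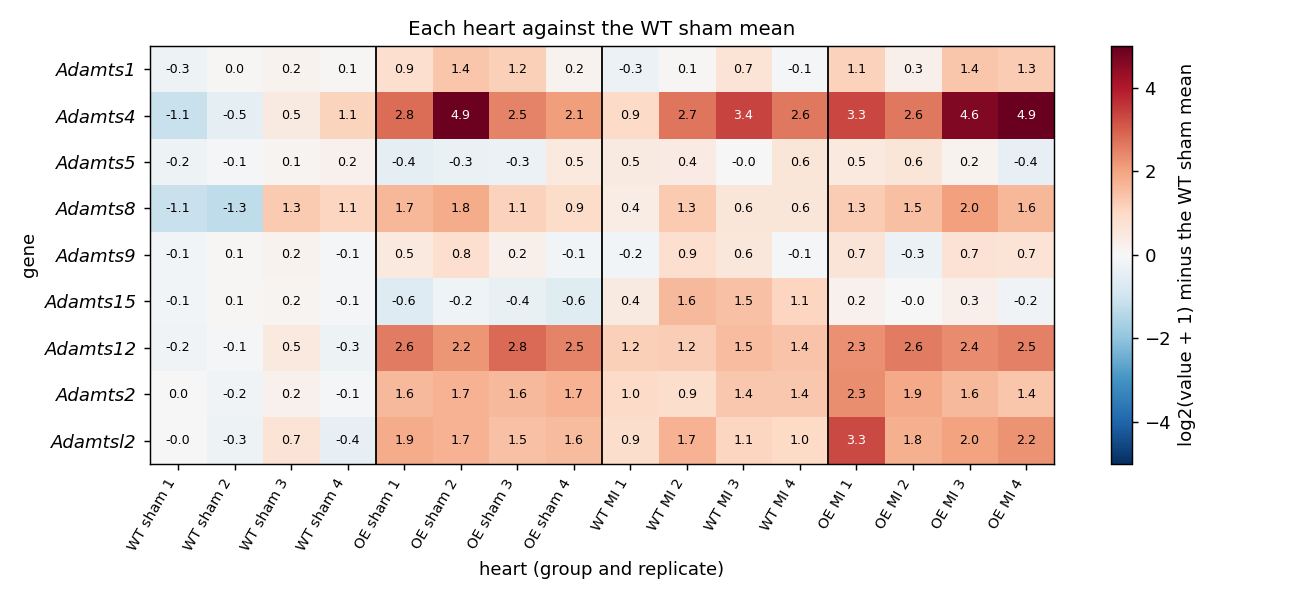
Difference of log2(value + 1) from the WT sham mean for each gene (rows) in each of the 16 hearts (columns, by group and replicate). Adamts12, Adamts2 and Adamtsl2 are above the WT sham mean in every OE and every WT MI heart, while Adamts15 is above it by 0.4 to 1.6 in the WT MI hearts and by at most 0.3 in the OE MI hearts.

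Counted together in infarcted hearts, OE against WT gave 4 of the 9 genes higher (Adamts1, Adamts12, Adamts2 and Adamtsl2) and Adamts15 lower, where 31.9% of all tested genes passed, 15.5% higher and 16.3% lower. Those were 2218 and 2336 genes, and library totals gave 3900 and 1562, with the same calls for the 9 genes. The median log2 fold change was 0.91 over the 9 genes and 0.006 over all. With terms for lung and thymus markers 2 of the 9 passed, Adamts12 and Adamts15 (1.24 and -1.29), while the number over all genes went from 4554 to 985. Without the libraries high in thymocyte markers also 2 of the 9 passed, Adamts12 and Adamts2, among 759 of all genes, and Adamts15 had -1.18 there (adjusted p = 0.0583). Without the lung-marked libraries 4 passed, those that were higher, among 2971 of all genes.

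Infarction against sham surgery was compared within each genotype. In WT hearts 5 of the 9 genes rose: Adamts12 by 1.34 (SE 0.16, adjusted p = 0.000452), Adamts2 by 1.14 (SE 0.16, 0.00119), Adamts15 by 1.15 (SE 0.20, 0.00453), Adamtsl2 by 1.17 (SE 0.29, 0.0276) and Adamts4 by 2.41 (SE 0.70, 0.0489). None fell. Over all tested genes 7.05% passed, 4.96% higher and 2.09% lower. Those were 709 and 299 genes, against 857 and 70 by library totals and 830 and 165 in edgeR, and both of these called the same genes of the 9 except Adamts4. The median log2 fold change was 1.14 over the 9 genes and -0.025 over all. Adamts12, Adamts2, Adamts15 and Adamtsl2 were higher in each WT MI heart than in any WT sham heart, and Adamts4 was so in all but WT MI replicate 1. The call of Adamts4 was lost in 21 of 30 alternatives (adjusted p from 0.0118 to 0.846), among them edgeR (2.58, adjusted p = 0.0891). That of Adamtsl2 was lost in 8 of 30 (0.00409 to 0.592).

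The other 4 genes did not pass in WT hearts. Adamts1 differed by 0.10 (95% interval -0.47 to 0.67, adjusted p = 0.848), Adamts5 by 0.37 (-0.11 to 0.85, adjusted p = 0.317), Adamts8 by 0.71 (-0.30 to 1.73, adjusted p = 0.361) and Adamts9 by 0.30 (-0.25 to 0.85, adjusted p = 0.484). Among RA 1 to 12 alone, which leaves the 2 WT sham hearts low in Adamts8, that gene passed at 1.93 (adjusted p = 0.0195), together with Adamts12 and Adamts2, while Adamts15 (1.21, adjusted p = 0.0786), Adamtsl2 (1.37, 0.105) and Adamts4 (3.12, 0.115) did not.

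The lung-marked hearts are 3 of the 4 WT MI hearts. With terms for lung and thymus markers 0 of the 9 passed in limma, where 6 of 14298 genes passed in place of 1008, so that the count says nothing of these 9. Log2 fold changes in that fit were 1.27 for Adamts12 (adjusted p = 0.0729), 1.03 for Adamts2 (0.167), 1.20 for Adamtsl2 (0.336), 0.64 for Adamts15 (0.326) and 1.53 for Adamts4 (0.586). Without the lung-marked libraries, which leaves WT MI replicate 1, again 0 of the 9 and 5 of all genes passed. The log2 fold changes were then 1.17 for Adamts12 (adjusted p = 0.248), 0.96 for Adamts2 (0.321), 0.89 for Adamtsl2 (0.592), 0.44 for Adamts15 (0.603) and 0.94 for Adamts4 (0.846). That heart alone, with lung markers at the sham level, had Adamts2 at 1404 against at most 835 in WT sham hearts, Adamts12 at 106 against at most 65.5, Adamts15 at 269.9 against at most 221 and Adamtsl2 at 501 against at most 435.5. Its Adamts4, at 8.44, was inside the WT sham range.

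In OE hearts 0 of the 9 genes passed for MI against sham in limma, and DESeq2 and edgeR also called 0 of them. Over all tested genes 0.00699% passed in limma, which is 1 gene, while 1448 had an unadjusted p below 0.05, and DESeq2 called 78 genes and edgeR 1. Adamts15 (0.53, 95% interval 0.11 to 0.96, adjusted p = 0.424) and Adamtsl2 (0.68, 0.06 to 1.30, adjusted p = 0.473) had intervals above 0. Adamts12 differed by -0.09 (-0.43 to 0.25, adjusted p = 0.873) and Adamts2 by 0.13 (-0.22 to 0.48, adjusted p = 0.817). Adamts4 differed by 0.82 (-0.66 to 2.30), and Adamts1, Adamts5, Adamts8 and Adamts9 by 0.09 to 0.36.

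**Figure D4:**
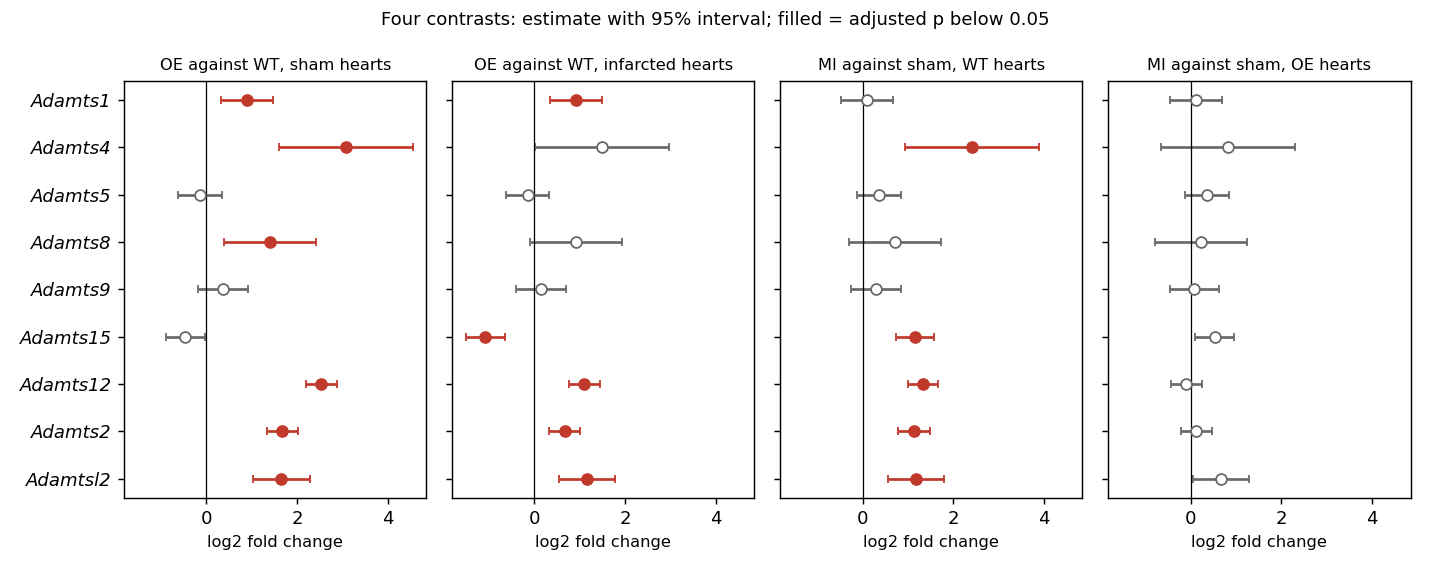
Log2 fold change of each gene with its 95% interval in 4 panels: OE against WT after sham surgery and after MI, then MI against sham for WT and for OE. Filled red points passed at an adjusted p below 0.05: 6 and 5 of the 9 genes for OE against WT, 5 for MI in WT hearts and 0 for MI in OE hearts.

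The difference between the 2 genotypes in their response to infarction was tested as an interaction. Only Adamts12 of the 9 genes passed, with a log2 value of -1.43 (SE 0.23, adjusted p = 0.023), from a rise of 1.34 in WT hearts and -0.09 in OE hearts. Over all tested genes 0.0839% passed, which is 12 genes, 0.00699% higher and 0.0769% lower. Adamts12 lost the call in 12 of 29 alternatives, including 8 of the 16 that leave out 1 library (WT sham replicates 1, 2 and 4, OE sham 1 and 3, WT MI 3 and 4, OE MI 3), with values of -1.59 to -1.34 over those 16. Adjusted p over the 29 alternatives ran from 5.29e-06 to 0.435. Adamts2 had -1.01 (SE 0.23, adjusted p = 0.139) and passed in DESeq2 (-0.98, adjusted p = 0.0134) and without OE MI replicate 1 (-1.18, adjusted p = 0.026). Adamts15 (-0.62, 95% interval -1.22 to -0.02, adjusted p = 0.485), Adamts4 (-1.59, -3.68 to 0.50, adjusted p = 0.631) and Adamtsl2 (-0.49, -1.37 to 0.38, adjusted p = 0.732) did not pass. For these genes a rise after infarction in WT but not in OE hearts is thus not shown to differ between the genotypes.

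Marker genes of some heart cells moved with these groups. Fibroblast markers summed to between 18375 and 21520 normalized reads in WT sham hearts. The sums were 50108 to 63085 with OE and sham surgery, 28763 to 44649 for WT MI and 52575 to 60846 for OE MI, and 5 of 6 rose in OE sham hearts. Cardiomyocyte markers summed to between 872180 and 1015163 in WT sham hearts, and to 580050 to 685477 with OE and sham surgery, 814765 to 872072 for WT MI and 516115 to 618352 for OE MI, and 4 of 6 fell in OE sham hearts. Macrophage markers ran from 4191 to 4712 for WT sham, 5562 to 6487 for OE sham, 5267 to 9119 for WT MI and 5036 to 8896 for OE MI, and 4 of 6 rose with OE in sham hearts and 4 of 6 with infarction in WT hearts. Epicardial and mesothelial markers ran from 811 to 1593, 357 to 1096, 1199 to 3236 and 940.0 to 1600.2 in the same order of groups, and 2 of 6 fell with OE in sham hearts. Endothelial markers ran from 14929 to 18597 for WT sham and 12634 to 16063 for OE sham. They ran from 15843 to 17663 for WT MI and 14914 to 15441 for OE MI. Mural markers ran from 10206 to 13862, 9834 to 12093, 11787 to 14306 and 9780 to 11036 in the same order of groups. In OE sham hearts 0 of 6 endothelial markers rose and 2 fell, and 2 of 6 mural markers rose and 1 fell. There 24.9% of all tested genes were higher and 24.5% lower, and after infarction in WT hearts 4.96% were higher. No marker list of these kinds was near 0 in any heart. Col1a1, Dcn and Lum stand both among the fibroblast markers and in the substrate lists below. They make up most of the fibroblast sum, and in OE sham hearts they rose by 2.94, 0.95 and 1.86 on the log2 scale. The other fibroblast markers moved less, Pdgfra by 0.64 (limma adjusted p = 0.00132) and Ddr2 by 0.43 (0.00233). Tcf21 differed by 0.54 and did not pass (0.127). The part of any of these cell types in the ADAMTS differences was not tested.

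The rest of the family held genes that rose and genes that fell. Of 11 other ADAMTS genes 9 were tested, and in sham hearts OE raised 2 and lowered 1, with a median log2 fold change of 0.067. Among all tested genes 24.9% were higher and 24.5% lower there, so these counts do not set the family apart. Named after their values were seen, the genes that passed were Adamts10 (0.49, adjusted p = 0.0232), Adamts20 (1.68, adjusted p = 2.42e-05) and Adamts7 (-1.49, adjusted p = 0.000169). Adamts7 is the closest relative of Adamts12, yet fell from 680 to 799 normalized reads in WT sham to 239 to 274 in OE sham hearts. Adamts14, the other tested procollagen propeptidase beside Adamts3, was at 35.3 to 88.1 and 68.2 to 117 (0.88, adjusted p = 0.0859), and Adamts3 at 69.7 to 178.6 and 46.2 to 96.5 (-0.69, adjusted p = 0.0819). Of the 6 ADAMTS-like genes other than Adamtsl2, 2 rose (Thsd4 by 2.58, adjusted p = 3.63e-06, and Adamtsl5 by 0.59, adjusted p = 0.00809) and 1 fell (Adamtsl4, -1.07, adjusted p = 8.04e-05). In infarcted hearts OE raised Adamts20 (0.68), Thsd4 (1.62) and Adamtsl5 (0.59) and lowered Adamts7 (-1.07) and Adamtsl4 (-0.65), and infarction in WT hearts raised Adamts20 (0.83, adjusted p = 0.0437) and Adamtsl1 (0.96, adjusted p = 0.00865).

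Proteoglycan genes, whose products the first branch cleaves, also rose. Of 6 tested proteoglycan genes 5 rose in OE sham hearts, with a median of 1.61, where 24.9% of all tested genes were higher. Versican (Vcan) went from 476 to 757 normalized reads in WT sham to 1230 to 2011 in OE sham hearts (1.46, adjusted p = 7.59e-05), and biglycan (Bgn) rose by 1.75 (adjusted p = 6.21e-07). Aggrecan (Acan) stayed at 5.17 to 9.62 and 6.38 to 13.4 (0.24, adjusted p = 0.794). In infarcted hearts OE raised 5 of 6, where 15.5% of all tested genes were higher. Infarction in WT hearts raised 4 of 6, where 4.96% of all were higher, and Vcan at 0.75 (adjusted p = 0.0572) did not pass. Comp, the cartilage oligomeric matrix protein that Adamts12 cleaves, was at 151.8 to 212 normalized reads in WT sham and 358 to 681 in OE sham hearts and rose by 1.44 (adjusted p = 0.0179). It rose by 1.62 after infarction in WT hearts (adjusted p = 0.0487), and differed by 0.44 between OE and WT infarcted hearts (adjusted p = 0.512).

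Fibrillar procollagens, the substrates of Adamts2, had 5 tested members. All 5 rose in OE sham hearts, in OE infarcted hearts and after infarction in WT hearts, with medians of 2.81, 1.04 and 1.86. The shares of all tested genes that were higher were 24.9%, 15.5% and 4.96% in the same order. Col1a1 was at 2045 to 3307 normalized reads in WT sham and 15086 to 21120 in OE sham hearts, where Adamts2 had gone from at most 835 to at least 2193. At the other end of procollagen, 2 of 5 genes of carboxy-terminal processing rose in OE sham hearts, namely the protease Bmp1 (1.06, adjusted p = 4.19e-06) and its enhancer Pcolce (1.57, adjusted p = 2.17e-07). Both also rose in OE infarcted hearts (0.44 and 0.93) and after infarction in WT hearts (0.70 and 0.49).

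Genes of the fibrillin and TGF-beta system, to which the binding partners of Adamtsl2 belong, were also counted. Of 9 fibrillin, latent TGF-beta binding protein and TGF-beta genes, 8 rose and 1 fell in OE sham hearts, with a median of 1.83. Over all tested genes 24.9% were higher and 24.5% lower there. Fibrillin-1 (Fbn1) rose by 1.83 (adjusted p = 1.40e-05) and Tgfb2 by 1.91 (adjusted p = 9.49e-07), and the gene that fell was Ltbp1 (-0.29, adjusted p = 0.0463). In infarcted hearts OE raised 8 of 9, where 15.5% of all tested genes were higher. Infarction in WT hearts raised 5 of 9, where 4.96% of all were higher, and Fbn1 rose by 0.95 (adjusted p = 0.0283).

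Genes that activate, restrain and clear ADAMTS enzymes differed from list to list. In OE sham hearts 24.9% of all tested genes were higher and 24.5% lower. None of 4 prodomain convertases rose and 1 fell there, and Furin differed by -0.10 (adjusted p = 0.615). Of 7 inhibitors 3 rose and 2 fell. For such short lists these counts do not stand out from the shares over all genes. Timp1 rose by 3.24 (adjusted p = 4.25e-05), while Timp3, an inhibitor of Adamts4 and Adamts5, differed by -0.19 (adjusted p = 0.401). Of 9 clearance receptors and cofactors 7 rose and 0 fell. Lrp1 rose by 0.96 (adjusted p = 1.08e-06) and the co-receptor Sdc4 by 1.56 (adjusted p = 2.15e-05), while Fbln1, a cofactor of Adamts1, differed by -0.08 (adjusted p = 0.844). Of 6 enzymes that add sugars to thrombospondin repeats 4 rose and 0 fell. Pofut2 rose by 0.47 (adjusted p = 0.000101) and B3glct by 0.35 (adjusted p = 0.00584). For MI against sham in OE hearts 0 genes of all these lists passed. Only 1 of all 14298 tested genes passed there (0.00699%), so that this count says nothing of the lists.

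Likeness of pattern was measured as the mean absolute difference of z-scored log2(value + 1) over the 16 libraries, among 10390 genes with a mean of at least 100 normalized reads. The values describe libraries that share groups, so no test was made. Adamts12 lay closest to Col6a1 (0.104) and Serpinf1 (0.133), and Adamts2 to Mfap4 (0.130) and Kirrel (0.139). Col6a1 was at 1743 to 2866 normalized reads in WT sham, 3672 to 5062 in WT MI and 9123 to 11742 in the 8 OE hearts, the same 3 steps as Adamts12. Among the members themselves Adamts2 and Adamts12 were the closest pair, at 0.268, and Adamts1 and its neighbour Adamts5 the farthest, at 1.43.

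Adamts1 lay closest to the transcription factor gene Atf4 (0.199) and to Agfg1 (0.248). Atf4 was at 1380.4 to 1601 in WT sham and at 2809, 3031, 2600.3 and 1935 in OE sham hearts, so that replicate 4 was its lowest too. In OE MI hearts it was at 2742, 1824, 3013 and 3113, lowest in replicate 2. Adamts15 lay closest to Emilin2 (0.251) and Rps9 (0.304), and Emilin2 was at 422, 845, 810.1 and 649.9 in WT MI and 269 to 527 in OE MI hearts. Adamts4 lay closest to Ccnl1 (0.268) and Sbno2 (0.278), Adamtsl2 to Tmem45a (0.209) and Mtch1 (0.242), Adamts9 to Map3k6 (0.315) and Tes (0.325), Adamts8 to Armcx1 (0.322) and Eri1 (0.345), and Adamts5 to Trim21 (0.330) and Arrdc1 (0.425).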

How the data were processed

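Per the series design text, libraries of single 60-nt reads had adapters removed by cutadapt (minimum length 40 nt) and were randomly thinned to 23M reads each. It also names TopHat 2.0.10 on mm10, HTSeq-count 0.6.1p1 over RefSeq genes and DESeq2 1.6.3. The authors deposited, for each sample, a signal column of counts scaled by a size factor, called normalized reads here. Within a tolerance of 0.001, 100% of positive values were whole multiples of 1 read, so that reads could be recovered for edgeR and DESeq2. The authors' deposited table also gives log2 fold changes and Benjamini-Hochberg adjusted p-values, and a signed fold change, treated as a score and not used.

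Genes with at least 10 normalized reads in at least 4 libraries were tested with limma (trended variance) on log2(value + 1), with 1 mean per group over all 16 libraries. Fold changes are on that scale and understate low genes. P-values were adjusted over all 14298 tested genes (Benjamini-Hochberg), passing below 0.05. SE is limma's moderated standard error, SD the spread of 4 animals, and 95% intervals use limma's moderated variance. The fit was tested on simulated data in which the spread setting was the same for every gene and only a small set of well-covered genes changed. These data differ in both respects, so that test does not vouch for the calls made here.

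The 9 members and all gene lists were chosen with earlier results of these data known. Named are the 9 members, Erbb2, preset members of each partner list and the 2 genes closest to each member in pattern. Other family genes and Comp were named after their values were seen. Exon lengths are unions of GENCODE exons, and gene positions and promoters are from RefSeq. Alternatives were edgeR, DESeq2, library totals, pseudocounts of 0.5 and 5, no filter, a filter of 50, untrended variance, the 2 groups alone, a replicate block, lung and thymus terms, RA 1 to 12 alone, each library left out and, chosen after seeing the data, fits without libraries of at least 1000 Sftpc or 100 Rag1 reads. Intervals cover these animals' spread and counting error together. Versions were limma 3.58.1 and edgeR 4.0.16 under R 4.3.3, with DESeq2 at 1.42.0 and Python at 3.11.15.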

Additional observations from a re-analysis of the deposited data

Results flagged for a closer look

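Within groups of 4 hearts, 4 of the 36 gene and group combinations held 1 heart far from the other 3 by Dixon's test at its 95% level, which by chance flags about 1 in 20 groups. Adamts4 was at 147.5 normalized reads in OE sham replicate 2 against 19.9 to 33.1 in the other OE sham hearts. Adamts5 was at 752.5 in OE sham replicate 4 against 391 to 428. Adamts9 was at 318.0 in OE MI replicate 2 against 612 to 637. Adamtsl2 was at 905.7 in WT MI replicate 2 against 501 to 568, and that heart had the highest lung epithelial marker sum, 9701.

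The response to infarction differed between genotypes for Adamts12 by the interaction test, with a value of -1.431 on the log2 scale (limma adjusted p = 0.023). That call was lost in 12 of 29 alternatives, including 8 of the 16 that leave out 1 library. Each of the 4 WT MI hearts was above every WT sham heart, while the ranges of OE sham (220.3 to 333) and OE MI hearts (233 to 283) overlapped.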

How the results depend on the processing

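Over 30 alternatives (29 for the interaction), 1208 of the values per gene and comparison kept their direction and their side of the threshold, 64 lost a call, 11 gained one and 58 changed sign, all of them values that had not passed. The number of members passing in sham hearts was 6 and stayed between 5 and 7. In infarcted hearts 5 became 2 with lung and thymus terms and 2 without the libraries high in Rag1, while 4554 calls over all genes became 985 and 759, and it was 6, with Adamts8 gained, in the 2 groups alone and for RA 1 to 12. For MI in WT hearts 5 became 0 with lung and thymus terms, 3 for RA 1 to 12 and 0 without the libraries high in Sftpc, while 1008 calls over all genes became 6, 112 and 5. For MI in OE hearts the number was 0 throughout. The interaction had 1, which became 2 in DESeq2 and 0 with lung and thymus terms, for RA 1 to 12, without the libraries high in Sftpc and without those high in Rag1, where 12 calls over all genes became 149, 0, 0, 2 and 31. Leaving out 1 library gave 5 to 7 members in sham and 4 to 5 in infarcted hearts, 3 to 5 for MI in WT (3 without WT sham replicate 1, 2 or 4 or WT MI replicate 2 or 3), 0 for MI in OE and 0 to 2 for the interaction. Where a group is left with 1 heart, that heart is assumed to vary like the other groups, and the fit has fewer hearts. The other causes were not tested. Library totals moved the median log2 fold change of all genes to 0.146 in sham and 0.12 in infarcted hearts, and took that of Adamts5 in sham hearts to 0.012. Their pseudocount of 1 CPM weighs on low genes such as Adamts4.

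Signs that turned, none of a called value, were as follows. For the interaction Adamts1 went to -0.030 in DESeq2, -0.053 in edgeR, -0.011 with library totals, -0.394 for RA 1 to 12, -0.812 with lung and thymus terms and -0.734 without the libraries high in Rag1, and Adamts5 to 0.116, 0.285 and 0.385 under the last 3. Without the libraries high in Sftpc the interaction was 0.038 for Adamts15, 0.123 for Adamts4, 0.468 for Adamts9 and 0.227 for Adamtsl2, and MI in WT hearts was -0.283 for Adamts1 and -0.156 for Adamts9. With lung and thymus terms MI in WT hearts was -0.109 for Adamts1, MI in OE hearts was -0.921 for Adamts1, -0.239 for Adamts15, -1.564 for Adamts4, -0.781 for Adamts8 and -0.857 for Adamts9, and OE in infarcted hearts was 0.140 for Adamts5 and -0.542 for Adamts9. Without the libraries high in Rag1 MI in OE hearts was -0.634 for Adamts1, 0.047 for Adamts12, -0.434 for Adamts4 and -0.641 for Adamts9, and OE in infarcted hearts was 0.240 for Adamts5 and -0.585 for Adamts9. For RA 1 to 12 MI in OE hearts was -0.127 for Adamts1 and -0.078 for Adamts9. Leaving out 1 library, the interaction ran from -0.227 to 0.263 for Adamts1, from -0.14 to 0.207 for Adamts5 and from -0.38 to 0.025 for Adamts9. MI in OE hearts ran from -0.127 to 0.364 for Adamts1, from -0.044 to 0.266 for Adamts2 and from -0.078 to 0.327 for Adamts9, MI in WT hearts from -0.093 to 0.228 for Adamts1, and OE in infarcted hearts from -0.285 to 0.057 for Adamts5 and from -0.012 to 0.383 for Adamts9.

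Same-numbered replicates showed no steady shared deviation. Over 24 pairs the correlation ran from -0.344 to 0.271, with 7 over 0.1, and 1 of 16 libraries correlated best with its own number. These values cannot show whether such libraries share more than a number. With the replicate block 7 members passed in sham hearts, 5 in infarcted, 4 for MI in WT, 0 for MI in OE and 1 for the interaction, beside 6868, 4336, 703, 0 and 20 of all genes against 7051, 4554, 1008, 1 and 12 without it. Over all genes DESeq2 called 149 for the interaction and 1732 for MI in WT hearts.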

Other observations

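Adamts16, which did not pass the filter on low values, was at 0 to 1.29 normalized reads in WT sham hearts and at 7.23, 5.48, 27.2 and 13.7 in the 4 WT MI hearts, each above every WT sham heart. WT MI replicate 1, with lung markers at the sham level, had 7.23. OE sham hearts had 0 to 5.58 and OE MI hearts 2.64 to 8.33. Adamts18 was at 0 to 3.99 in all 16 hearts. These values were picked out after they were seen and were not tested.

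Adamts13, the protease that cuts von Willebrand factor, was at 58.6 to 214 in WT sham and 117 to 166 in OE sham hearts (0.07, limma adjusted p = 0.885), and at 81.1 to 171 in WT MI and 96.3 to 130.4 in OE MI hearts (-0.13, adjusted p = 0.807). Adamts17 and Adamts19 passed in none of the 5 comparisons.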
